A study of Mus musculus with 20 samples.

Results

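The genes described here hold the oocyte in meiotic arrest or form the channels that join it to the follicle cells. They are Nppc, Npr2, Pde3a, Gpr3, Adcy3, Gja1, Gja4 and Gjc1. They were taken by symbol from a table of 39253 genes, and all 8 were present and all 8 were among the 17810 genes that passed a filter on low counts and were tested. Their Entrez identifiers in the deposited results are 18159 for Nppc, 230103 for Npr2, 54611 for Pde3a, 14748 for Gpr3, 104111 for Adcy3, 14609 for Gja1, 14612 for Gja4 and 14615 for Gjc1.

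RNA was sequenced from antral follicles of 20 female CD-1 mice, an outbred stock. From an age of 40 days they drank water alone (10 control mice), or water with iodoacetic acid, a by-product of water disinfection, at 10 mg/L (5 mice) or 500 mg/L (5 mice), over 35 days. Follicles of 220 to 400 µm were dissected in diestrus at 75 days, and each library held 30 to 40 follicles of 1 mouse. The mice came from 2 experiments: the mice at 500 mg/L and control replicates 6 to 10 from experiment 1, and the mice at 10 mg/L and control replicates 1 to 5 from experiment 2. All groups shared the strain and the dissection, and each dose was present in 1 experiment only, so dose and experiment cannot be told apart without the controls of that experiment.

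A fully grown oocyte would resume meiosis on its own, and the follicle keeps it arrested by holding cAMP high inside it. In the oocyte the receptor GPR3 signals through Gs to adenylyl cyclase, of which ADCY3 is the form known from rodent oocytes, and the phosphodiesterase PDE3A breaks the cAMP down. Mural granulosa cells secrete C-type natriuretic peptide (CNP, from Nppc), its receptor NPR2 on granulosa and cumulus cells makes cGMP, and the cGMP passes through gap junctions into the oocyte, where it inhibits PDE3A. Connexin 43 (Gja1) joins granulosa cells to each other, connexin 37 (Gja4) joins the oocyte to its cumulus cells, and connexin 45 (Gjc1) is known chiefly from the vessel wall and the heart.

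Members that varied together between mice, as described further on, were Nppc with Gja1 and Gpr3 with Gja4, so the 250 bases before the start of each of these 4 genes are shown. They are from the RefSeq promoter table of build GRCm38.p6, whereas the submitters' processing notes name GRCm39. The table matched 6 of the 8 members, and Pde3a and Gjc1 had no entry. Capitals mark a TATA box (TATAAA), GC boxes (GGGCGG), an AP-1 site (TGANTCA) or the TGACG of a cAMP response element, found on either strand. A TGACG on the other strand appears as its reverse complement.

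Nppc (chr1:86670574-86670823, minus strand): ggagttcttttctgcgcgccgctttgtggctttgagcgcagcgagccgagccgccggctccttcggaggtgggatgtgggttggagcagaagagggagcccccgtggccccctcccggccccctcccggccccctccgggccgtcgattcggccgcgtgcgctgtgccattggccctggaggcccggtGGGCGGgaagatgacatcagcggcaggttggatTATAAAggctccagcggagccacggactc
Gja1 (chr10:56377050-56377299, plus strand): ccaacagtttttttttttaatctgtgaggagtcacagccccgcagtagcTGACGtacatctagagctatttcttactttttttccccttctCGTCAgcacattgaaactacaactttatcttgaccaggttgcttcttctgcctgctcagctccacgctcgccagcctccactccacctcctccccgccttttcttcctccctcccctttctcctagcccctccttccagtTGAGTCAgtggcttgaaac
Gpr3 (chr4:133212537-133212786, minus strand): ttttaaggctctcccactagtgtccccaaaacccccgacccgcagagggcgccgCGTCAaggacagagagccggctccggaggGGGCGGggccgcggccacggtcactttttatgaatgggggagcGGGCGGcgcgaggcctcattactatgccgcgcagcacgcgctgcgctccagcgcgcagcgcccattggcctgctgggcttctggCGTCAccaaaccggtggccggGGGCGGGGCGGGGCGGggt
Gja4 (chr4:127314040-127314289, minus strand): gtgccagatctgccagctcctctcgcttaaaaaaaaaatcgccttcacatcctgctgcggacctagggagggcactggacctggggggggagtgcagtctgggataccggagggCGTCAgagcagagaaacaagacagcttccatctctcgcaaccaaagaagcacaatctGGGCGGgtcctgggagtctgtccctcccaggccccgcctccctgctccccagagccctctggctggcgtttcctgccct

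The Nppc window held a TATA box from base -29 to base -24 before the start and 1 GC box, and no TGACG. The Gja1 window held 1 AP-1 site, from base -19 to base -13, 2 TGACG and no TATA or GC box. An E-box (CANNTG) from base -23 to base -18 overlapped that AP-1 site and is not in capitals. The Gpr3 window held 5 GC boxes, of which 3 overlapped near the start, and 2 TGACG, and the Gja4 window held 1 GC box and 1 TGACG. Nppc and Gja1 thus had none of the capitalised motifs in common, and Gpr3 and Gja4 had both of theirs in common. Of 32851 windows of the same kind in the table, 12.4% held TATAAA, 32.7% GGGCGG, 6.75% TGANTCA, 17.8% TGACG and 66.2% CANNTG. A match is a description of letters, and these data did not measure binding.

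Each library held between 39.9 M and 67.5 M estimated counts (M for mega). The common biological coefficient of variation of edgeR, 1 estimate shared by all tested genes, was 24.98%. Over the controls, the median coefficient of variation was 10.5% for the 11740 genes with a mean of at least 5 CPM. That of the members ran from 12.9% (Npr2) to 37.1% (Gjc1). Levels below are CPM, counts brought to an equal library size by trimmed means (TMM), as mean ± SD across mice, and a change is a log2 ratio, given with its standard error (SE). Defining markers of oocytes and granulosa cells were present in every group: 16 oocyte markers summed to 618 to 1143 CPM in the controls, 605 to 1209 CPM at 10 mg/L and 684 to 1298 CPM at 500 mg/L, and 14 granulosa markers to 12132 to 18180, 9214 to 20226 and 9908 to 20320 CPM. Markers of endothelial cells were positive at 10 mg/L for 12 of 12 genes (7 at an unadjusted edgeR p under 0.05, none adjusted). Their summed level was 343 to 563 CPM in the controls and 428 to 625 CPM at 10 mg/L. Luteal markers were positive at 10 mg/L for 7 of 7 genes, with a median log2 ratio of 0.70 against all controls (1 at an unadjusted p under 0.05) and of 1.55 against the controls of experiment 2 (4 of 7, none adjusted). Their summed level was 319 to 3659 CPM in the controls, 602 to 3033 CPM at 10 mg/L and 524 to 1140 CPM at 500 mg/L. Erythroid markers were positive for 5 of 5 genes at either dose. The part of these markers in the members' values was not tested. In follicle RNA, fewer cells of a type and less RNA per cell cannot be told apart.

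The members differed widely in level. Per kb of the longest annotated transcript, the control mean was 1549 CPM per kb for Gja1, 53.2 for Npr2, 34.4 for Nppc, 12.8 for Gja4, 9.27 for Adcy3, 5.64 for Gjc1, 1.13 for Pde3a and 1.06 for Gpr3. Over the 20 mice, Gja1 did not overlap with Npr2, the next in order, and Gjc1 did not overlap with Pde3a. All the other neighbours in this order overlapped. Gja4 exceeded Adcy3 in 19 of 20 mice. Pde3a exceeded Gpr3 in 13 of 20, and with the shortest transcript, at 2.40 CPM per kb, Gpr3 came before Pde3a. Gpr3 had 77 to 163 counts per mouse, so it was the member with the least depth.

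Gja1 held nearly all connexin RNA of the follicle. Of the 20 connexin genes with a length, 10 were tested, and Gja1 made up a mean of 98.5% of their summed CPM per kb over the 20 mice (97.8% to 99.1%). Gja4 made up 0.829% and Gjc1 0.361%, so the other 17 genes together had less than Gja4 alone. The highest of these was Gja5, the connexin 40 of endothelium, at 0.0723%.

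**Figure D1:**
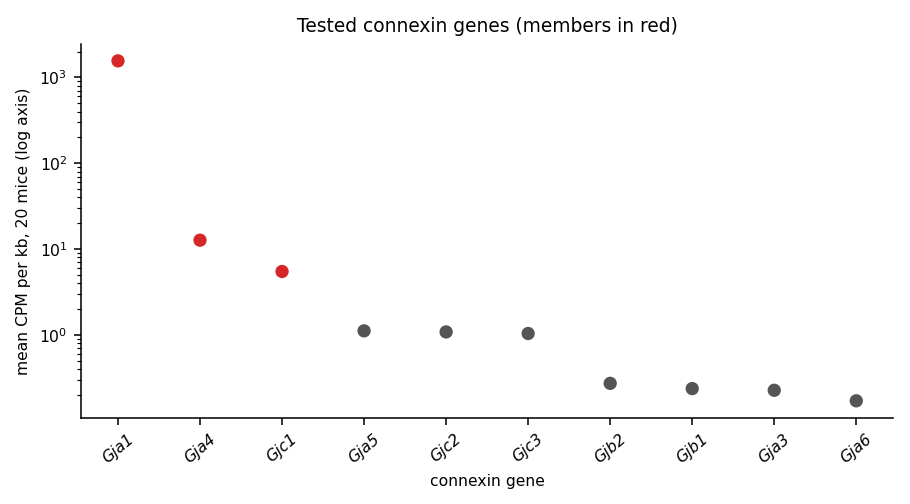
Mean CPM per kb over 20 mice (vertical log axis) of the 10 tested connexin genes (horizontal axis), with members in red. Gja1 stands at 1561 CPM per kb, Gja4 at 12.7 and Gjc1 at 5.48, above all others.

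The ligand and its receptor were followed first. In the controls Nppc ran from 23.2 to 62.1 CPM with a median of 34.8. The mice at 10 mg/L had 31.1, 28.3, 38.0, 22.1 and 19.3 CPM, and at 500 mg/L 40.4, 60.3, 26.0, 36.8 and 11.6 CPM. The groups overlapped, with 2 of 5 mice at 10 mg/L below every control, and the spread was widest at 500 mg/L, where the highest mouse exceeded the lowest 5.19-fold. Nppc had a log2 change of -0.37 at 10 mg/L (SE 0.28, edgeR adjusted p = 0.878) and of -0.03 at 500 mg/L (SE 0.27, adjusted p = 0.988) against all controls. The change at 10 mg/L was -0.24 without control replicate 2. The sign at 500 mg/L depended on the controls used, with a log2 change of 0.03 against the controls of experiment 1 (SE 0.32, edgeR adjusted p = 0.997).

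Npr2, which makes the cGMP, gave the largest ratio to its SE of the 8 members. In the controls it ran from 149.6 to 229 CPM with a median of 196. The mice at 10 mg/L had 186, 212, 248, 203 and 189 CPM. Those at 500 mg/L had 243, 232, 280, 238 and 215 CPM. Of the 5 mice at 500 mg/L, 4 lay above every control and all 5 above the control median, with 1 mouse overlapping the controls. The mean was 241.5 ± 24.0 CPM (SD, n = 5) at 500 mg/L against 194.7 ± 25.1 (SD, n = 10) in the controls. The log2 ratio was 0.31 (SE 0.09, 95% interval 0.12 to 0.50), a fold of 1.24, and it did not pass over the 17810 genes (edgeR p = 0.00284, adjusted p = 0.332). Against the controls of its own experiment it was 0.38 (SE 0.11, 95% interval 0.16 to 0.60, edgeR adjusted p = 0.831). Over the 12 alternative analyses the log2 change ran from 0.25 to 0.38 and the adjusted p from 0.102 to 0.831. The 0.25 came from the replicate block, which set these mice against controls of experiment 2 only. In the authors' deposited table Npr2 has a signed fold of 1.24 at 500 mg/L with an adjusted p of 0.0377. The model behind that adjusted p is not given in the sources used here, so it may not be the same test. No other member has an adjusted p under 0.05 in the authors' deposited table, where 1.26% of 18169 genes pass at 500 mg/L and 0.611% at 10 mg/L.

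At 10 mg/L Npr2 showed a log2 change of 0.09 against all controls (SE 0.09, edgeR adjusted p = 0.911) and of 0.03 against its own (SE 0.11, adjusted p = 0.982). The effect at 500 mg/L exceeded the effect at 10 mg/L by 0.35 on the log2 scale, each against its own controls (SE 0.15, edgeR p = 0.0312, adjusted p = 0.895), so the doses were not shown to differ. Beside the change at 500 mg/L, the granulosa score (the mean log2 CPM of its markers) was 8.87 at 500 mg/L and 8.85 in the controls, and the erythroid score 2.29 and 1.62. Against the controls of experiment 1 alone, leukocyte markers were positive for 0 of 10 genes (median log2 ratio -0.46), luteal markers for 0 of 7 (median -0.49), oocyte markers for 15 of 16 (median 0.18) and erythroid markers for 5 of 5 (median 1.11). None of these markers passed after adjustment. Their part in the result was not tested.

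**Figure D2:**
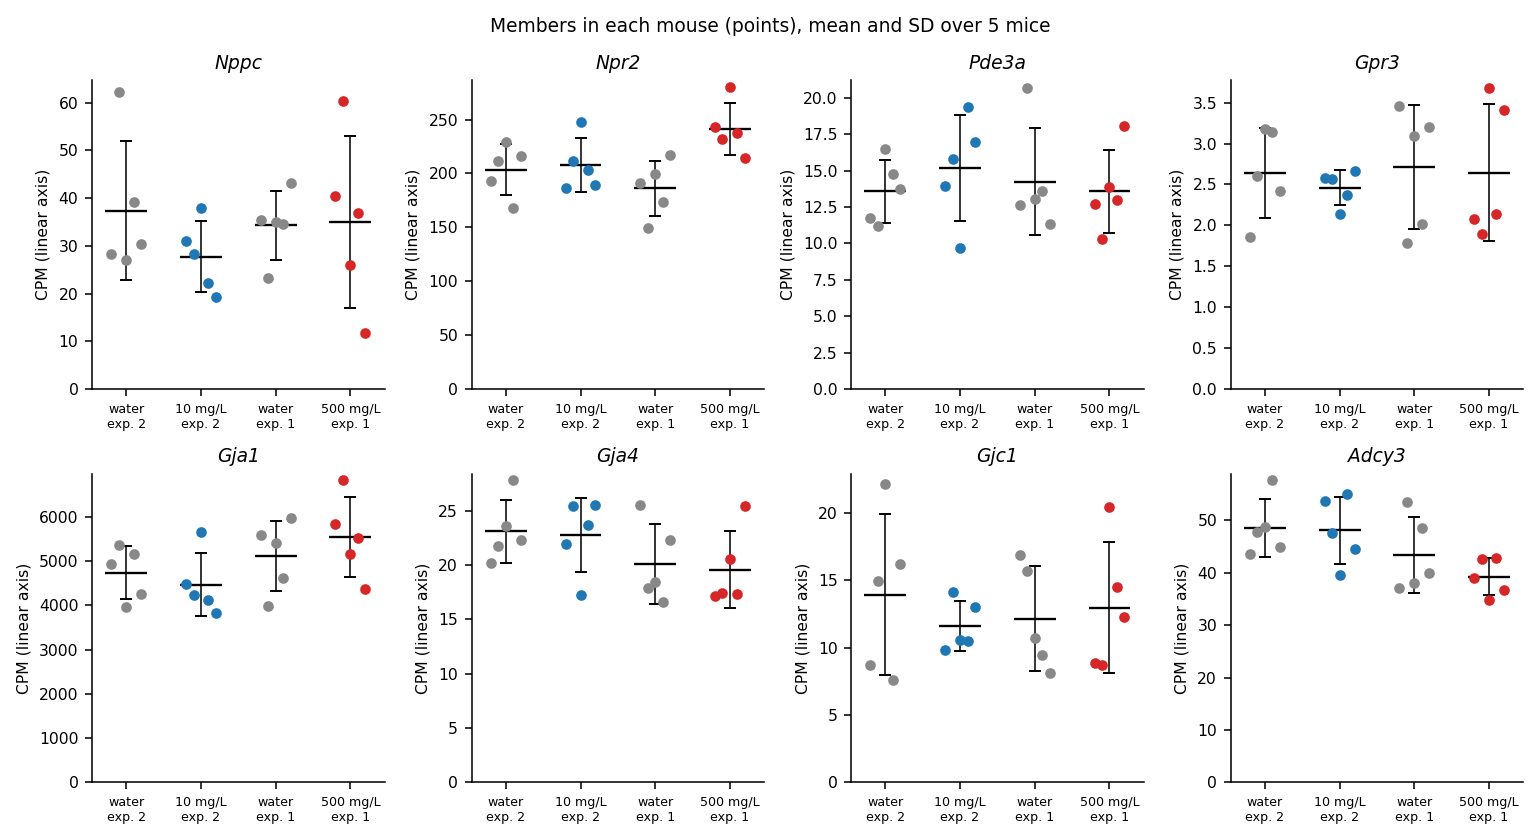
CPM (linear axis from 0) of each member in each mouse (points), by group and experiment, with the mean (bar) and SD over 5 mice (whiskers). The 5 mice at 500 mg/L have a higher Npr2 than the control median, and Nppc spreads from 11.6 to 60.3 CPM at that dose.

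Of the members that produce and break down cAMP in the oocyte, none passed. Gpr3 had 1.78 to 3.46 CPM in the controls with a median of 2.85. The mice at 10 mg/L had 2.58, 2.57, 2.14, 2.37 and 2.66 CPM, and at 500 mg/L 2.08, 1.90, 3.68, 2.14 and 3.41 CPM. At 500 mg/L 3 mice lay near 2 CPM and 2 above 3.4, so the SD there was 0.835 CPM against 0.211 CPM at 10 mg/L, a contrast that was not tested. The SD was 0.758 CPM in the controls of experiment 1 and 0.548 CPM in those of experiment 2, so the group at 10 mg/L was the narrow one. Its log2 ratio was -0.12 at 10 mg/L (SE 0.19, edgeR adjusted p = 0.950) and -0.02 at 500 mg/L (SE 0.19, adjusted p = 0.989).

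Adcy3 had 37.2 to 57.8 CPM in the controls with a median of 46.3. The values were 53.7, 47.7, 39.7, 55.1 and 44.5 CPM at 10 mg/L, and at 500 mg/L 39.0, 42.6, 34.9, 42.9 and 36.8 CPM. All 5 mice at 500 mg/L lay below the control median, 2 of them below every control, and the groups overlapped. The log2 ratio was -0.23 (SE 0.10, edgeR p = 0.0331, adjusted p = 0.536). It was -0.15 against the controls of experiment 1 (SE 0.11, adjusted p = 0.965) and -0.06 in that comparison without control replicate 7. The ratio at 10 mg/L was 0.07 (SE 0.10, adjusted p = 0.946).

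Pde3a ran from 11.2 to 20.7 CPM in the controls with a median of 13.3. After 10 mg/L it was 14.0, 15.8, 9.70, 19.4 and 17.0 CPM, and at 500 mg/L 12.7, 10.3, 13.9, 13.0 and 18.03 CPM. The groups overlapped, and the log2 ratio was 0.12 (SE 0.16, edgeR adjusted p = 0.934) and -0.04 (SE 0.16, adjusted p = 0.975). 

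The connexins differed in how they spread. Gja1 ran from 3972 to 5966 CPM in the controls with a median of 5049. It was 4490, 4229, 5660, 4120 and 3837 CPM at 10 mg/L and 5848, 6824, 5165, 5521 and 4377 CPM at 500 mg/L. Above the control median lay 4 of 5 mice at 500 mg/L and 1 of 5 at 10 mg/L, with overlap at both doses. The log2 ratio was -0.14 at 10 mg/L (SE 0.12, edgeR adjusted p = 0.883) and 0.17 at 500 mg/L (SE 0.12, adjusted p = 0.717). The first was -0.23 without replicate 3 at 10 mg/L and -0.092 without replicate 5, and the second was 0.084 without replicate 2 at 500 mg/L.

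Gja4 had 16.6 to 27.8 CPM in the controls, a median of 22.0, and 22.0, 25.4, 17.3, 23.7 and 25.5 CPM at 10 mg/L and 17.1, 17.4, 20.6, 17.3 and 25.4 CPM at 500 mg/L. The log2 ratio was 0.07 (SE 0.12, edgeR adjusted p = 0.955) and -0.14 (SE 0.12, adjusted p = 0.793). The second was -0.04 against the controls of experiment 1. Gjc1 varied most between controls, from 7.57 to 22.2 CPM (median 12.8), with a coefficient of variation of 37.1%. It was 9.82, 14.2, 10.6, 10.5 and 13.0 CPM at 10 mg/L and 8.87, 8.71, 20.5, 14.5 and 12.3 CPM at 500 mg/L. Its log2 ratio was -0.17 (SE 0.25, edgeR adjusted p = 0.943) and -0.01 (SE 0.25, adjusted p = 0.997), and the 95% interval of the second reached from -0.52 to 0.50.

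**Figure D3:**
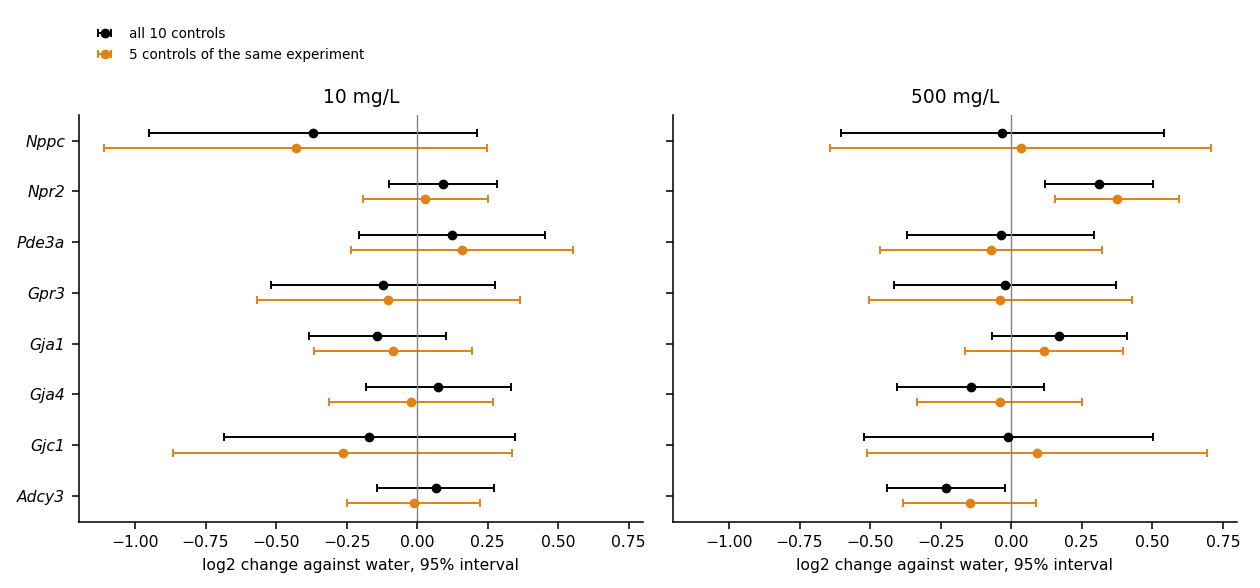
Log2 change of each member (horizontal axis) at 10 mg/L and 500 mg/L against all 10 controls (black) and the 5 controls of the same experiment (orange), with 95% intervals as bars. The interval of Npr2 at 500 mg/L lies above 0 with either control set, and that of Adcy3 lies below 0 with all controls.

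No member passed at 10 mg/L (0 of 8, against 0.00561% of all tested genes) or at 500 mg/L (0 of 8, against 0.0112%). At an unadjusted edgeR p under 0.05 the count was 0 of 8 at 10 mg/L, beside 6.22% of tested genes, and 2 of 8 at 500 mg/L (Npr2 and Adcy3), beside 8.69%. Against the controls of the own experiment no member passed at either dose, where the share over all genes was 0% at both, and 0 and 1 of 8 had an unadjusted p under 0.05, beside 6.45% and 5.19%. The effects of the doses differed for no member after adjustment, beside 0% of genes, and for 1 at an unadjusted p under 0.05, beside 5.41%. The groups did not overlap for 0 of 8 members, beside 0.0955% and 0.331% of genes at 10 and 500 mg/L against all controls and 1.04% and 0.932% against the own controls. Between the control sets of the experiments 28 genes passed, 0.157%, and no member did. The median log2 change of the 8 members was -0.03 at either dose, beside -0.00039 at 10 mg/L and -0.00014 at 500 mg/L over all tested genes. DESeq2, limma-voom and limma-trend called no member in these comparisons either. DESeq2 called 8 of 29269 genes at 10 mg/L and 86 of 10331 at 500 mg/L against all controls. Against the own controls it called 31 of 22569 and 5 of 29269. For the difference between the doses it called 15 of 20342, and between the control sets 192 of 17017. A gene left without an adjusted p by DESeq2 was counted as not called. Limma-voom and limma-trend called 0 genes at either dose. Between the control sets they called 28 and 31 of 17810.

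Over the mice, the members fell into sets that varied together. Correlations were computed over the 20 mice on log2 CPM, with Pearson's r, Spearman's rho and permutation p (two-sided, 100000 resamples). Points share the scaling to a common library size. A first family held 18 relations of known partners, and 5 passed after adjustment. A second, added after values had been seen, held all 28 pairs of members and 80 pairs of a member with a marker score, and 19 of 108 passed, 5 of them pairs of members. Values below are from the second family unless the 18 relations are named. The r of deviations is that after the mean of each group within its experiment was removed.

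Gpr3 and Gja4 went with the oocyte markers. For Gpr3 and the oocyte score r was 0.79 and rho 0.79 (permutation p = 1e-05, the smallest the resamples can give, adjusted p = 0.00108). Another draw of resamples, for the 18 relations, gave this pair a permutation p of 6e-05 (adjusted p = 0.00036). Its r was 0.75 without the 2 mice farthest from the median, 0.90 in experiment 1 and 0.73 in experiment 2. For Gja4 and the score r was 0.82 and rho 0.83, r was 0.79 without 2 mice, 0.81 in experiment 1 and 0.92 in experiment 2 (adjusted permutation p = 0.00108). Gpr3 and Gja4 with each other gave r = 0.66 and rho = 0.65 (adjusted permutation p = 0.0217), 0.71 without 2 mice, and 0.77 for deviations. Neither gene is in the marker list. Gja4 and the endothelial score gave r = 0.19 (adjusted permutation p over the 18 relations = 0.535).

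Pde3a and Adcy3, the other members known from the oocyte, did not pass with the oocyte score. Pde3a had r = 0.40 and rho = 0.42, and r was 0.78 without the 2 mice farthest from the median of Pde3a. Adcy3 had r = -0.12 over all mice and -0.22 for deviations. It passed in experiment 1 alone (r = -0.80, adjusted permutation p over the 18 relations = 0.0159) and not in experiment 2 (r = 0.40, adjusted permutation p = 0.355), so the experiments were opposite in sign. The same held for Gpr3 with Adcy3, again adjusted over the 18 relations. Its r was -0.33 over all mice (adjusted permutation p = 0.235), -0.83 in experiment 1 (adjusted permutation p = 0.0054) and 0.58 in experiment 2 (adjusted permutation p = 0.170). For deviations it was -0.39. Each experiment held controls and mice of 1 dose, so r within an experiment includes any difference between these groups. Whether the experiments differ in these relations was not tested.

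Nppc and Gja1 went with the granulosa markers and against Pde3a. Nppc and Gja1 gave r = 0.74 and rho = 0.85 (adjusted permutation p = 0.00231), 0.88 without 2 mice, 0.81 in experiment 1 and 0.81 in experiment 2, and r of deviations was 0.84. Nppc and the granulosa score gave r = 0.79 and rho = 0.86, and Gja1 and that score 0.73 and 0.77 (both adjusted permutation p = 0.00108). Gja1 and Pde3a gave r = -0.83 and rho = -0.86 (adjusted permutation p = 0.00108), -0.95 in experiment 1, -0.85 in experiment 2 and -0.90 for deviations, and Nppc and Pde3a r = -0.77 and rho = -0.83. Mice with a high connexin 43 mRNA thus had a high Nppc and a low Pde3a mRNA.

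**Figure D4:**
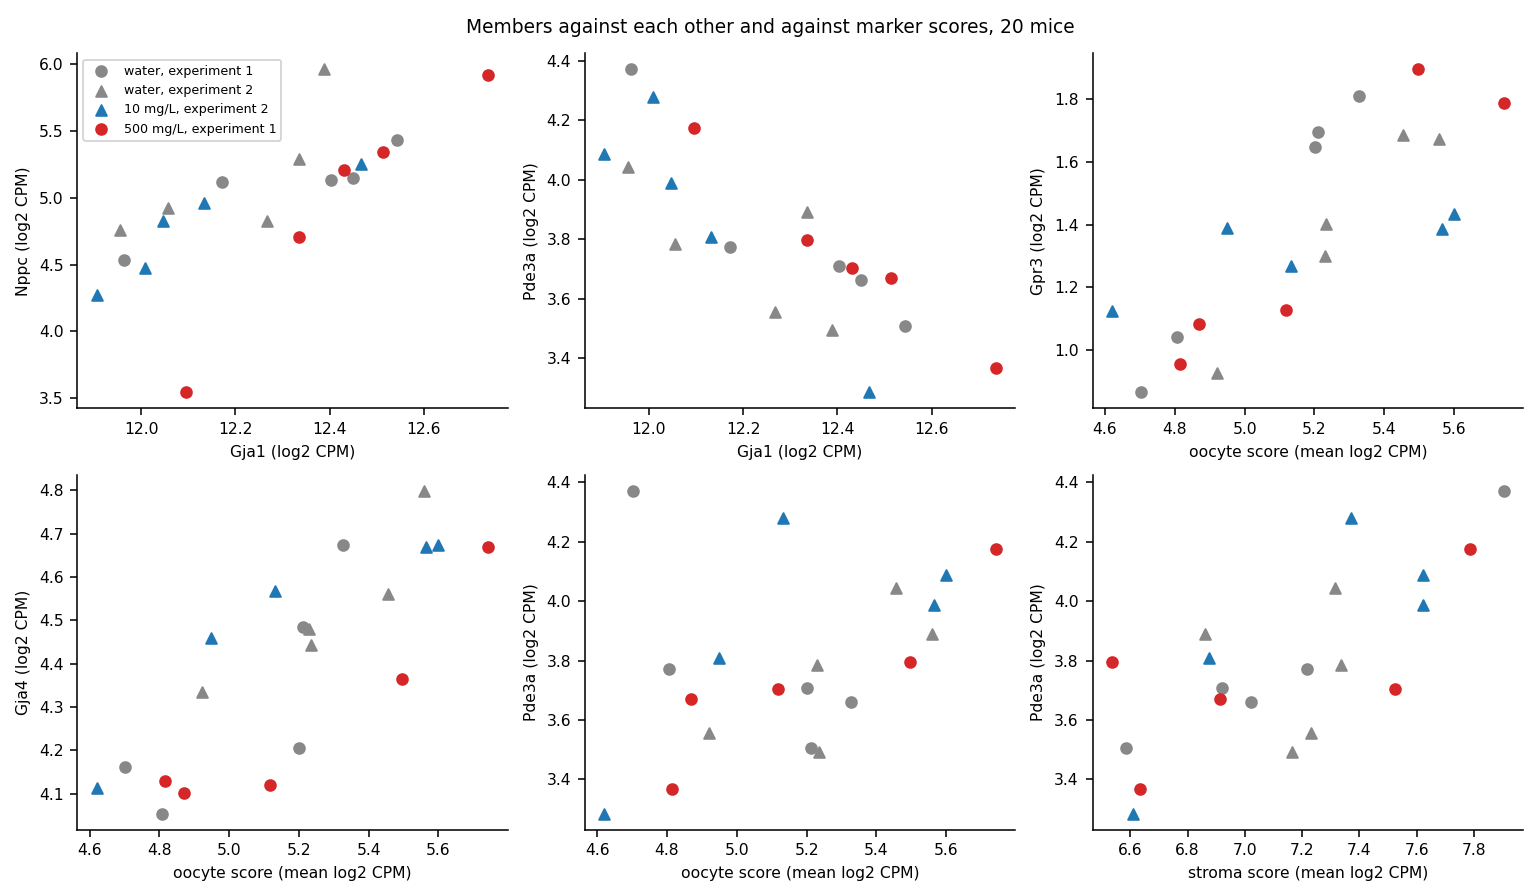
Log2 CPM of members against each other and against the oocyte and stroma scores (mean log2 CPM of the markers), 1 point per mouse, colour for the group and shape for the experiment. Nppc is high and Pde3a low where Gja1 is high, and Gpr3 and Gja4 are high where the oocyte score is.

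Pde3a was instead high where stroma and smooth muscle markers were. With the smooth muscle and pericyte score, one of the 18 relations, r was 0.60 and rho 0.57 (adjusted permutation p = 0.0203), 0.51 without 2 mice. It did not pass in experiment 1 alone (r = 0.64, adjusted permutation p = 0.115) or in experiment 2 alone (r = 0.59, adjusted permutation p = 0.170). With the stroma score, from the second family, r was 0.74 and rho 0.64 (adjusted permutation p = 0.00384), 0.68 without 2 mice, 0.82 in experiment 1 and 0.64 in experiment 2. Gja1 and that score gave r = -0.74 and Nppc -0.62. These relations were not particular to stroma and smooth muscle. For deviations, r of Pde3a was 0.74 with the stroma score, 0.68 with leukocyte, 0.60 with smooth muscle and pericyte and 0.51 with luteal. For Gja1 and the leukocyte score it was -0.72. The scores also varied together, with r of deviations for stroma of 0.92 with smooth muscle and pericyte, 0.84 with endothelial and 0.80 with leukocyte. Npr2 passed with no marker score, and among members only with Adcy3 (r = -0.63, rho = -0.57, adjusted permutation p = 0.0217), where r was -0.48 without 2 mice. Gjc1 passed with no member and no score. With the endothelial score, whose markers were positive at 10 mg/L, Nppc gave r = -0.58, Gja1 -0.64 and Pde3a 0.58 (adjusted permutation p = 0.0402, 0.0217 and 0.0402), and r of Pde3a was 0.43 without 2 mice. The part that the mix of cells in a dissection has in these relations was not tested.

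**Figure D5:**
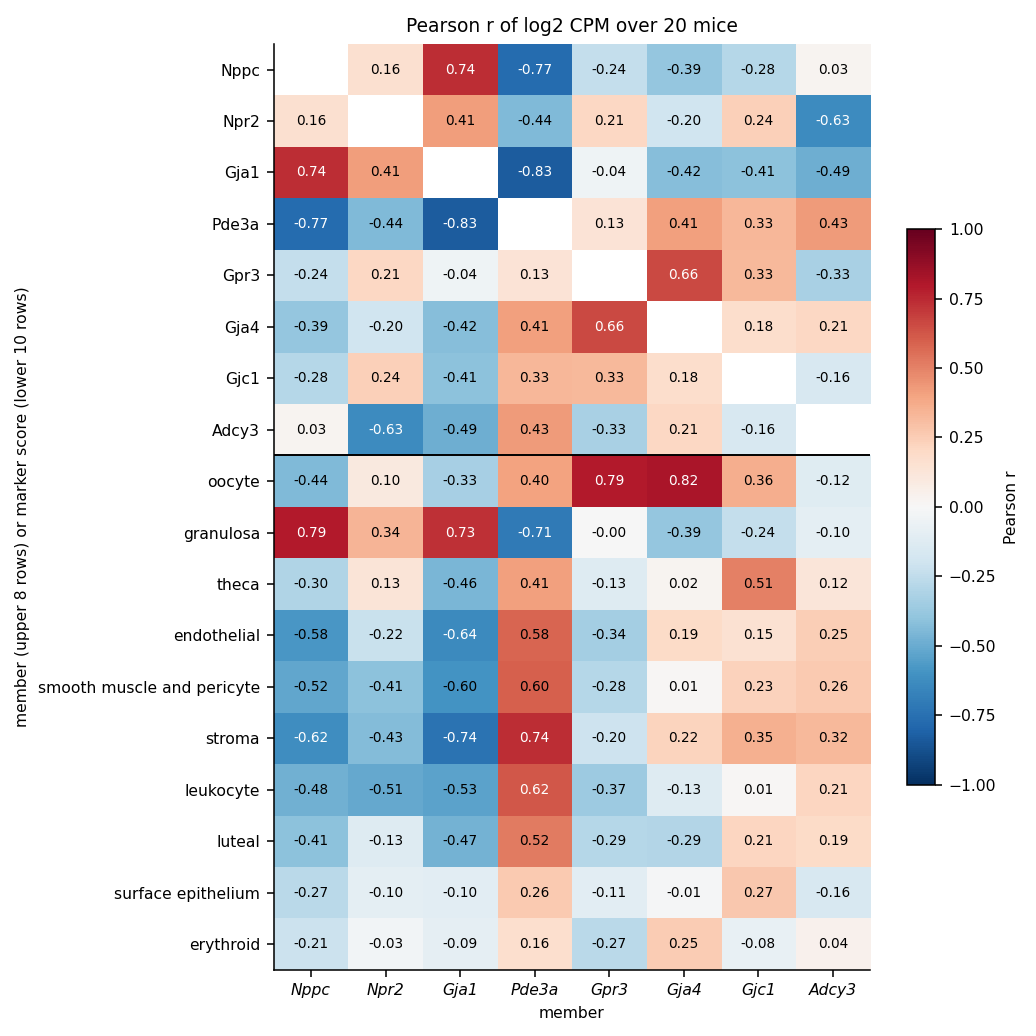
Pearson r of log2 CPM over 20 mice for pairs of members (upper 8 rows) and of a member (columns) with a marker score (lower 10 rows), coloured from -1 (blue) to 1 (red). Gpr3 and Gja4 share a red cell with the oocyte score (0.79 and 0.82), and Pde3a has opposite signs to Nppc and Gja1 in the granulosa and stroma rows.

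The genes most like each member were taken over 11739 or 11740 genes with a mean of at least 5 CPM, by r of deviations over 20 mice, as a description. Gpr3 was most like Rhpn2 (r = 0.94), Gm1070 (0.93) and Pramel13 (0.93). For Gja4 these were Fbxw28 (0.92), Fbxw18 (0.92) and Nlrp14 (0.91), of which Nlrp14 is an oocyte marker in the list used here and the pair of F-box genes belongs to a family of near-identical copies whose reads could be split. Nppc was most like Ciao2a (0.90), Plxnc1 (0.90) and Map3k5 (0.89), and Gja1 most like Golt1b (0.91), Map3k5 (0.91) and Inha (0.91), the inhibin alpha subunit of granulosa cells, so Map3k5 is in both sets. Pde3a was most like Spry4 (0.89), Abcc4 (0.88) and Plat (0.87), and Npr2 most like Mcph1 (0.90), Vars2 (0.86) and Mapk1ip1 (0.84). Adcy3 was most like Ptpn3 (0.90), Stim2 (0.88) and Madd (0.84). Gjc1 reached the lowest values, with Ncald (0.78), Htra3 (0.77) and Prdm10 (0.72).

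Other genes of the pathways were read from 7 lists, and none of their genes passed in the comparisons of either dose. Of the cGMP genes 19 of 21 were tested, 12 positive at 10 mg/L and 10 at 500 mg/L. Prkg2, a cGMP-dependent kinase, was at 0.760 ± 0.163 CPM in the controls (SD, n = 10), 1.43 ± 0.390 at 10 mg/L and 1.47 ± 0.940 at 500 mg/L (SD, n = 5 each). Every mouse at 10 mg/L was above the highest control, 0.962 CPM, whereas mice at 500 mg/L ran from 0.719 to 2.66 CPM. Prkg2 was picked for its small p, so this separation adds no further support. Over all tested genes, 0.0955% had groups that did not overlap at 10 mg/L against all controls. Its log2 ratio was 0.91 (SE 0.28, edgeR adjusted p = 0.650) and 0.94 (SE 0.28, adjusted p = 0.337). Pde2a, a phosphodiesterase that cGMP stimulates, had a log2 change of 0.40 at 10 mg/L (SE 0.13, edgeR adjusted p = 0.664), and the endothelial markers above were positive at that dose too. Pde1a had 0.27 at that dose (SE 0.12, adjusted p = 0.789). Impdh1 and Impdh2, which supply the guanine nucleotides, were the most abundant genes of the list, with log2 ratios between -0.06 and 0.01 at both doses.

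Of the genes of cAMP production and breakdown 24 of 26 were tested, with a median log2 ratio of -0.015 at 10 mg/L and -0.0085 at 500 mg/L. Gpr12 and Gpr6, the receptors most like Gpr3, were not among them, with at most 10 counts and 1 count in any mouse. Adcy4, another adenylyl cyclase, had a log2 ratio of 0.40 at 10 mg/L (SE 0.15, edgeR adjusted p = 0.740), and Pde3b, the closest relative of Pde3a, -0.31 (SE 0.17, adjusted p = 0.819). Prkaca, the catalytic subunit of protein kinase A, had -0.14 at 500 mg/L (SE 0.06, edgeR adjusted p = 0.524). Gnas, which encodes the Gs subunit that GPR3 acts through, stood at 883 ± 40.4 CPM in the controls (SD, n = 10), with a log2 change of 0.04 at 10 mg/L and -0.02 at 500 mg/L.

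Of the cell cycle genes that act when meiosis resumes 23 of 23 were tested. Of these, 10 were positive at 10 mg/L and 7 at 500 mg/L, with a median log2 ratio of -0.046 and -0.044. Mastl, the kinase that restrains the phosphatase opposing CDK1, had a log2 change of 0.37 at 500 mg/L (SE 0.11, edgeR adjusted p = 0.339). Cdc25b, the phosphatase that activates CDK1, had 0.20 (SE 0.09, adjusted p = 0.547). Fbxo5, an inhibitor of the anaphase-promoting complex, had -0.25 at 10 mg/L (SE 0.09, adjusted p = 0.698). Cdk1 itself was at 103 ± 13.2 CPM in the controls (SD, n = 10) with a log2 change of -0.15 and -0.03.

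Of the other connexins and pannexins 9 of 20 were tested, and 3 of 9 were positive at each dose. Gja3, connexin 46, had a log2 change of -0.90 at 500 mg/L (SE 0.29, edgeR adjusted p = 0.360), from 0.521 to 1.40 CPM in the controls to 0.154 to 0.663 CPM, a transcript of at most 58 counts per mouse. Gja5 had -0.42 at 500 mg/L (SE 0.22, adjusted p = 0.607), and Panx1, the most abundant gene of the list, -0.11 (SE 0.17, adjusted p = 0.906). Among 14 tested partners of connexins, Ctnna1 had 0.11 (SE 0.05, edgeR adjusted p = 0.551) and Tjp1, the scaffold ZO-1 that binds connexin 43, 0.12 (SE 0.06, adjusted p = 0.587) at 500 mg/L, and Ctnnb1 -0.02 at both doses.

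Of the 17 genes on the route from luteinizing hormone and the EGF receptor to resumption, 8 were positive at 10 mg/L and 12 at 500 mg/L. Map2k1 had a log2 change of 0.23 at 10 mg/L (SE 0.08, edgeR adjusted p = 0.740) and Mapk3, which encodes ERK1, -0.21 at 500 mg/L (SE 0.09, adjusted p = 0.511). Rgs2, the most abundant gene of that list, had -0.23 and 0.05 (SE 0.23 each). Of the 19 regulators of the CNP system, 10 were positive at 10 mg/L and 10 at 500 mg/L. Furin, which cuts the CNP precursor, had -0.18 at 500 mg/L (SE 0.07, edgeR adjusted p = 0.477), and Esr1, the oestrogen receptor alpha, -0.23 (SE 0.11, adjusted p = 0.579). Inha had -0.01 and 0.07 and Inhba -0.20 and 0.24 at 10 and 500 mg/L. For none of these genes did the change pass over all tested genes.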

How the data were processed

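Poly(A)-selected, stranded libraries of 20 mice were sequenced for 101 cycles from 1 end, per the labels' protocols. Named in the submitters' processing notes are Salmon 1.2.0 (which estimates counts per transcript), FastQC 0.11.8, limma, edgeR and R 4.1.2, with build GRCm39. The step from transcripts to genes is not given in the sources used here. Expected counts per gene, not normalized, were deposited by the authors, and were rounded to whole numbers here. Per the file headers, the authors' deposited results give average log2 expression, p-values, an F statistic (a score) and signed linear fold changes (a ratio). Their values were only set beside those recomputed. The experiment of each mouse was read from the column headers.

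In R 4.3.3, edgeR 4.0.16 with TMM scaling, its expression filter and robust quasi-likelihood F-tests (two-sided, Benjamini-Hochberg over 17810 genes at 0.05) was fitted over the 20 mice. The model had a mean for each group, or for each group within experiment for the comparisons with the own controls. The script was tested on simulated data. No pair of libraries looked like a copy: the smallest chi-square per gene over the 65 within-group pairs was 21.96. Log2 CPM used a prior count of 2. Transcript lengths came from the GENCODE M21 annotation, matched by symbol. Named genes were the members, up to 3 genes of each list with the smallest p and up to 2 with the highest mean CPM, and the 3 genes most like each member. The members and lists were chosen with earlier results of these data known. Alternatives were DESeq2 1.42.0, limma 3.58.1 (voom and trend), other scalings and filters, only the groups compared, own controls, experiment as a term, a replicate block, each mouse left out, and, added after seeing the data, up to 3 surrogate variables from sva 3.50.0 and the second family of relations. The mice are separate animals, so the tests weigh a difference against the spread between mice. With 1 mean per group, that spread includes any difference between the experiments. The permutations were made without regard to group.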

Additional observations from a re-analysis of the deposited data

Results flagged for a closer look

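One of the 24 sets of values tested for a sample far from the others (a member in a group of 5 or 10 mice) held one, where chance gives about 1 in 20. Control replicate 2 had 62.1 CPM of Nppc, and the next control had 43.2 CPM. The control mean was 35.8 ± 11.0 CPM with this mouse (SD, n = 10) and 32.9 ± 6.26 CPM without it.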

How the results depend on the processing

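No member passed in any of the comparisons under any alternative, including those that left out a mouse. Few genes passed at all. Besides DESeq2, whose counts are given above, the replicate block called 17 of 17518 genes at 500 mg/L. Every other fit called 0 to 3 of all tested genes at either dose. Between the control sets the fits other than DESeq2 called 3 to 50 genes. Of the 18 relations 5 passed, 6 in experiment 1 alone and 3 in experiment 2 alone. Those lost were Pde3a with the smooth muscle and pericyte score in either experiment (adjusted permutation p = 0.115 and 0.170) and Gpr3 with the oocyte score in experiment 2 (0.0726). Those gained, in experiment 1, were Adcy3 with the oocyte score (r = -0.80, 0.0159) and Gpr3 with Adcy3 (r = -0.83, 0.0054). The replicate numbers did not pair the mice (correlations of -0.164 to 0.152 over 15 pairs). The fit with the replicate block held replicates 1 to 5 of each group, so its controls were all from experiment 2. With this block the log2 ratio of Npr2 was 0.25 at 500 mg/L (edgeR adjusted p = 0.203) and no member passed. The mice at 500 mg/L had no control of their own experiment there, so dose and experiment cannot be told apart in that value. The signs that turned belong to ratios whose interval held 0, and the cause was not tested. At 10 mg/L against all controls, Adcy3 was -0.013 with the own controls or experiment as a term and -0.016 with the replicate block, Gja4 was -0.021 and -0.025 in the same fits, and Pde3a -0.012 with surrogate variables. Own controls and experiment as a term are the same model, and like the block they set these mice against controls of experiment 2 only. The control means in experiments 2 and 1 were 48.6 and 43.5 CPM for Adcy3 and 23.1 and 20.1 CPM for Gja4. At 500 mg/L, Gjc1 was 0.091 with the own controls or experiment as a term, 0.00397 with limma-trend and 0.0044 with upper-quartile factors, Nppc 0.033 with the own controls or experiment as a term, and Pde3a 0.0031 with surrogate variables. Against the own controls, Adcy3 at 10 mg/L was 0.0039 with upper-quartile factors, and Nppc at 500 mg/L -0.13 with limma-trend and -0.087 with limma-voom. Among relations, r of Adcy3 with the oocyte score was 0.40 and of Gpr3 with Adcy3 0.58 in experiment 2, and of Gpr3 with Pde3a -0.055 in experiment 1.

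Leaving out 1 mouse in turn, these log2 ratios crossed 0. At 500 mg/L against all controls they were Gjc1 from -0.23 to 0.10, Gpr3 from -0.17 to 0.075, Nppc from -0.32 to 0.19 and Pde3a from -0.16 to 0.047. At 500 mg/L against its own controls they were Gja4 from -0.16 to 0.055, Gjc1 from -0.13 to 0.23, Gpr3 from -0.19 to 0.059, Nppc from -0.26 to 0.25 and Pde3a from -0.20 to 0.10. At 10 mg/L against its own controls they were Adcy3 from -0.062 to 0.066, Gja4 from -0.065 to 0.0701 and Npr2 from -0.035 to 0.082. For the difference between the doses they were Gja4 from -0.14 to 0.069 and Gpr3 from -0.094 to 0.16. Between the control sets they were Gjc1 from -0.35 to 0.035, Gpr3 from -0.067 to 0.16, Nppc from -0.22 to 0.14 and Pde3a from -0.10 to 0.15. Without crossing 0, the ratios to all controls that moved by over 1.5 times were Adcy3 from 0.014 to 0.13, Gja1 from -0.23 to -0.092, Gja4 from 0.0305 to 0.17, Gjc1 from -0.25 to -0.045, Gpr3 from -0.17 to -0.066, Nppc from -0.50 to -0.24, Npr2 from 0.027 to 0.13 and Pde3a from 0.022 to 0.25 at 10 mg/L, and Gja1 from 0.084 to 0.24 and Gja4 from -0.26 to -0.099 at 500 mg/L. Depth limited Gpr3 most, at 77 counts in its shallowest mouse.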
